A study of Mus musculus with 21 samples.

Results

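Ruxolitinib, a type I inhibitor of JAK2, and CHZ868, a type II inhibitor, were compared directly by RNA-seq in Ba/F3 cells expressing JAK2-V617F, without a DMSO library entering the difference. The comparison rests on 6 of the 21 libraries of the series, 3 of ruxolitinib-treated and 3 of CHZ868-treated cells. Both groups had been exposed to 1 μM inhibitor for 6 h. A group of 3 libraries from cells given DMSO for 6 h served as the control, and its values are printed beside the comparison where they help to place it. Ba/F3 is a mouse pro-B cell line that depends on interleukin-3. All groups used here carry human JAK2-V617F, introduced by retroviral transfer, which lets the cells grow without the cytokine. The results therefore describe a mouse line with an introduced mutant kinase, and whether it was a single clone is not given in the sources used here.

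The 2 inhibitor groups are held in separate tables, which were normalized separately, so no test was run between them and each difference is a description of 3 libraries against 3. The tables hold 11868 genes (ruxolitinib) and 11670 genes (CHZ868), and 11624 genes are in both. For these genes, the deposited value, a log2 of CPM (counts scaled to library size) with a small constant added, was reduced by its library's median over the shared genes. A value of 1 therefore means that a gene stood 1 log2 unit above the median gene of its library. A difference is the mean of the ruxolitinib-treated libraries minus the mean of the CHZ868-treated libraries, with its standard error (SE) from the spread of 3 libraries on either side. A gene was counted as higher in one group when the difference was at least 1 log2 unit and no library of that group lay at or below a library of the other. The labels do not say that replicates were separate cultures, so the spread may be technical.

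JAK2 is the tyrosine kinase of several cytokine receptors, and the V617F mutation keeps it active without a ligand. Active JAK2 phosphorylates STAT5, which binds DNA and turns on genes such as Pim1, Cish, Socs2 and Id1. Type I inhibitors bind the ATP pocket of the kinase in its active conformation, whereas type II inhibitors bind the inactive conformation and reach into a neighbouring pocket. ATF4 is a transcription factor that is made when amino acids are short or when translation initiation is slowed, and its targets take up amino acids, make serine and glycine, and charge tRNAs. Mitochondrial DNA encodes subunits of the respiratory chain, and its mRNAs are read from long transcripts that cover almost the whole circle.

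Depth on the listed genes was similar, between 9340000 and 10270000 reads in ruxolitinib-treated, between 7880000 and 10670000 in CHZ868-treated and between 8310000 and 9730000 in DMSO-treated libraries. Ruxolitinib-treated replicate 2 stood apart from its group. Replicates 1 and 3 differed by at least 1 log2 unit in 40 genes, whereas replicate 2 differed so from replicate 1 in 258 genes and from replicate 3 in 216 genes. Against CHZ868-treated replicate 3 it did so in 189 genes. The CHZ868-treated libraries differed from each other in 248 to 427 genes and the DMSO-treated libraries in 27 to 36. Counts over gene lists are therefore also given without replicate 2. The cells had reads for the B lineage genes Cd79a, Cd79b and Ptprc, but these were the 3 of 15 B lineage markers that either table lists, and Pax5 and Ebf1 are not among them. No marker of neutrophils (of 7) or fibroblasts (of 6) is listed. In bulk RNA, fewer cells of a kind and less RNA per cell cannot be told apart.

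Across the 11624 shared genes, 173 were counted as higher in one group, 88 in ruxolitinib-treated cells (0.757% of the genes) and 85 in CHZ868-treated cells (0.731%). The difference was below 0.5 log2 units in 81.6% of the genes. All 3 ruxolitinib-treated libraries lay above all 3 CHZ868-treated libraries, by any amount, for 18.6% of the genes, and the opposite held for 16.7%. Without ruxolitinib-treated replicate 2, which leaves 2 libraries to compare with 3, these shares were 28.7% and 28.7%. Without ruxolitinib-treated replicate 2, 403 genes were counted, 204 higher with ruxolitinib and 199 higher with CHZ868, and 81 of the 88 and 83 of the 85 were among them. Without CHZ868-treated replicate 3 there were 315, 172 with ruxolitinib and 143 with CHZ868, and without CHZ868-treated replicate 2 the genes higher with ruxolitinib were 134. The balance of the directions depended on the scale. It was 120 to 66 without centring, 44 to 110 with quantile normalization, 45 to 66 with log2(CPM + 1), 2 to 36 with log2(CPM + 5) and 17 to 70 among genes with a mean of at least 3 log2 CPM.

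The genes on either side were of different kinds. Of the 88 genes higher with ruxolitinib, 56 stayed below 3 log2 CPM in both groups, and 51.8% of those in the GENCODE annotation were protein-coding, against 86.7% of all shared genes. Of the 85 genes higher with CHZ868, 7 were that low and 71.6% were protein-coding, and 12 came from the mitochondrial genome. Just inside the threshold of 1 were Tmem14a (1.00), Lyar (-1.01) and, also on the side of CHZ868, Cnih4, and just outside it were Trpt1 (0.99), Faddos (0.99) and Gm50431 (0.99).

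**Figure D1:**
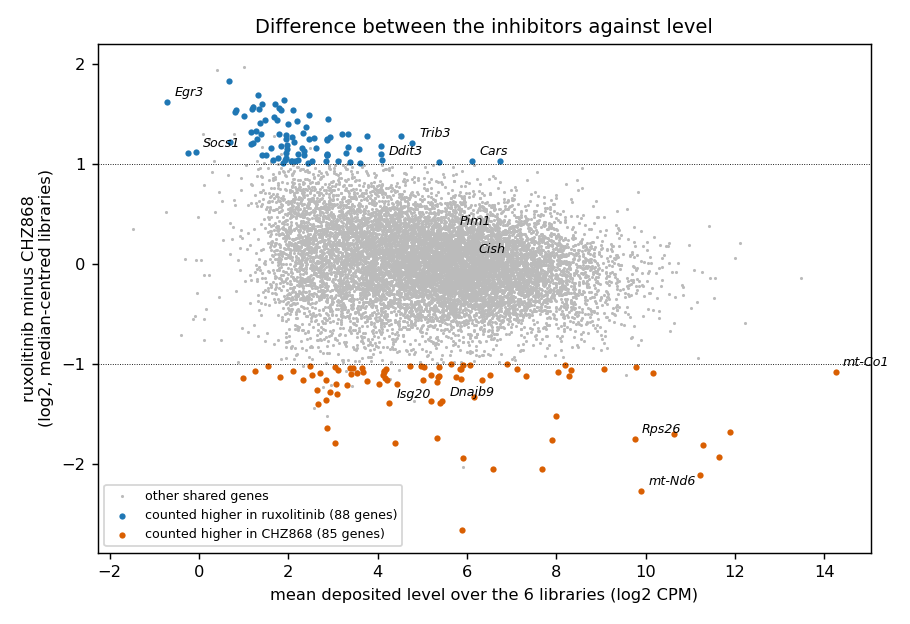
Difference between ruxolitinib-treated and CHZ868-treated cells (log2, median-centred libraries, n = 3 each) against the mean deposited level over the 6 libraries (log2 CPM), 1 point per shared gene, with the 88 genes counted higher with ruxolitinib in blue, the 85 counted higher with CHZ868 in orange and the threshold of 1 as dotted lines. The blue genes lie mostly at low levels, and the orange genes reach the highest levels, where mt-Co1 and mt-Nd6 stand.

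The listed target genes of the inhibited pathway lay close together under both drugs. The list of JAK2 and STAT5 target genes had 17 of 20 members in both tables, with a median difference of 0.11 log2 units, against 0.01 over all shared genes. In 3 members the ruxolitinib-treated libraries were all higher, in 3 the CHZ868-treated libraries were all higher, and 11 overlapped. These shares, 17.6% each way, lie near the 18.6% and 16.7% of all genes. Without ruxolitinib-treated replicate 2 the counts were 6 and 4, beside 28.7% of all genes each way. For 14 of the 17, every library of both inhibitor groups lay below every DMSO-treated library, as was so for 1667 of the 11624 shared genes. The median stood 1.32 log2 units below DMSO with ruxolitinib and 1.37 below with CHZ868, 2 values that share the same DMSO libraries. Members of the list include the Pim kinases, Id1, Tgm2, Serpina3g and Spp1. The paper reports these genes as lowered by ruxolitinib in such cells, and it sets Tgm2 apart from the STAT5 target genes. The position of the list below DMSO is therefore not independent of that report. Whether each member is a direct STAT5 target was not tested. Over all alternatives the median difference ranged from 0.05 to 0.18.

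The promoters show the sequences that the transcription factors discussed here are known to read, one of a STAT5 target that did not differ between the drugs and a pair from the ATF4 list that did. Each is a RefSeq window of GRCm38.p6, from 250 bases before to 50 after the gene's start, written 5′ to 3′ on the gene's strand. Capitals mark TTCNNNGAA, the STAT element, in Cish (chr9:107296409-107296708, plus strand), and TGATGNAA, a core of the ATF4 element, or its reverse complement, in Trib3 (chr2:152344011-152344310, minus strand) and Pck2 (chr14:55540016-55540315, plus strand).
Cish: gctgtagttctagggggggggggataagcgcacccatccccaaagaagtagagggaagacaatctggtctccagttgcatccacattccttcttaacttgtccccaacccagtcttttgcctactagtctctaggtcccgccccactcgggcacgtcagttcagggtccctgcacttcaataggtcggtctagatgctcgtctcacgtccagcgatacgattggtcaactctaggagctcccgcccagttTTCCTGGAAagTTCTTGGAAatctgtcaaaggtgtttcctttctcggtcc
Trib3: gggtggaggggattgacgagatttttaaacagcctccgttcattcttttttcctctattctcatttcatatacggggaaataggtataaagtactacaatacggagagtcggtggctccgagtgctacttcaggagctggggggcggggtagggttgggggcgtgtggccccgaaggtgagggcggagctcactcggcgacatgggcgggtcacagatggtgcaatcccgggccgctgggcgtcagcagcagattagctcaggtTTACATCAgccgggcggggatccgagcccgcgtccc
Pck2: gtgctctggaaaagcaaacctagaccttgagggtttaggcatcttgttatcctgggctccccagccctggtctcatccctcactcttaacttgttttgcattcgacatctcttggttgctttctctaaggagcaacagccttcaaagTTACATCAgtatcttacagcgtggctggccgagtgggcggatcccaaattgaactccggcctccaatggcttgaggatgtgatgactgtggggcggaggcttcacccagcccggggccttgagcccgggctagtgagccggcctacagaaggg
The STAT element was present, on either strand, in 3 of the 11 STAT5 target genes that have a window (Cish, Socs3 and Serpina3g), against 8.30% of the 8436 shared genes with one. A match describes the letters of the window and not a bound site.

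Cish, a feedback inhibitor of the receptor, stood at 0.83, 0.88 and 0.88 log2 units above the median gene in the ruxolitinib-treated libraries and at 0.68, 0.95 and 0.83 in the CHZ868-treated libraries. Its difference was 0.05 (SE 0.08), with values from -0.02 to 0.11 when a library was left out, and the groups overlapped. In DMSO it stood at 2.16, 2.23 and 2.16, above all 6. Socs2, another feedback inhibitor, differed by -0.08 (SE 0.12), the cytokine Osm by 0.11 (SE 0.19), Ccnd2, a D cyclin, by 0.09 (SE 0.05), and Bcl2, which restrains apoptosis, by 0.15 (SE 0.07), each with overlap. Bcl2l1 differed by 0.18 (SE 0.31), Pim2 by 0.19 (SE 0.29), Tgm2 by 0.12 (SE 0.08) and Socs3 by 0.01 (SE 0.42), also with overlap. For these genes the drugs differed less from each other than either did from DMSO, as for Pim2, at -2.34 and -2.53 from it.

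The kinase gene Pim1 was slightly higher with ruxolitinib. It stood at 0.74, 0.46 and 0.60 with ruxolitinib and at 0.12, 0.25 and 0.42 with CHZ868, a difference of 0.34 (SE 0.12) without overlap, while DMSO held it at 3.39, 3.44 and 3.48. Id1, an inhibitor of basic helix-loop-helix factors, stood at -0.50, -0.54 and -0.55 with ruxolitinib and at -1.06, -0.84 and -0.49 with CHZ868, a difference of 0.26 (SE 0.16) with overlap. Ccnd3 was higher with ruxolitinib by 0.19 (SE 0.08), without overlap. Socs1, the feedback inhibitor of JAK kinases, was the 1 member counted, with a difference of 1.12 (SE 0.50), but it rested on 11, 16 and 9 reads with ruxolitinib and on 5, 6 and 1 with CHZ868, against 184, 249 and 226 in DMSO. With log2(CPM + 1) its difference was 0.57, without CHZ868-treated replicate 3 it was 0.68, and without ruxolitinib-treated replicate 2 it was 0.92.

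Other members leaned towards CHZ868. Mcl1, an apoptosis inhibitor with a short-lived protein, stood at 2.57, 2.62 and 2.41 with ruxolitinib and at 2.91, 3.04 and 2.98 with CHZ868. The DMSO-treated libraries lay between, at 2.74, 2.73 and 2.72, so that the drugs stood on opposite sides of the control, with a difference of -0.44 (SE 0.08). Serpina3g, a protease inhibitor gene that shares 30.1% of its 31-base words with other genes and most with Serpina3f, differed by -0.56 (SE 0.10), and Spp1, which encodes osteopontin, by -0.51 (SE 0.13), both without overlap. Serpina3g lay below DMSO with both drugs. Spp1 stood at -0.18, -0.07 and -0.40 with ruxolitinib and at 0.46, 0.23 and 0.19 with CHZ868. In DMSO it stood at 0.11, 0.24 and 0.17, so only ruxolitinib held it below the control. Myc stood at 1.97, 3.04 and 2.20 with ruxolitinib and at 3.25, 3.02 and 3.12 with CHZ868. Its difference was -0.73 (SE 0.33) with overlap, and -1.04 without ruxolitinib-treated replicate 2, the library that overlaps.

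**Figure D2:**
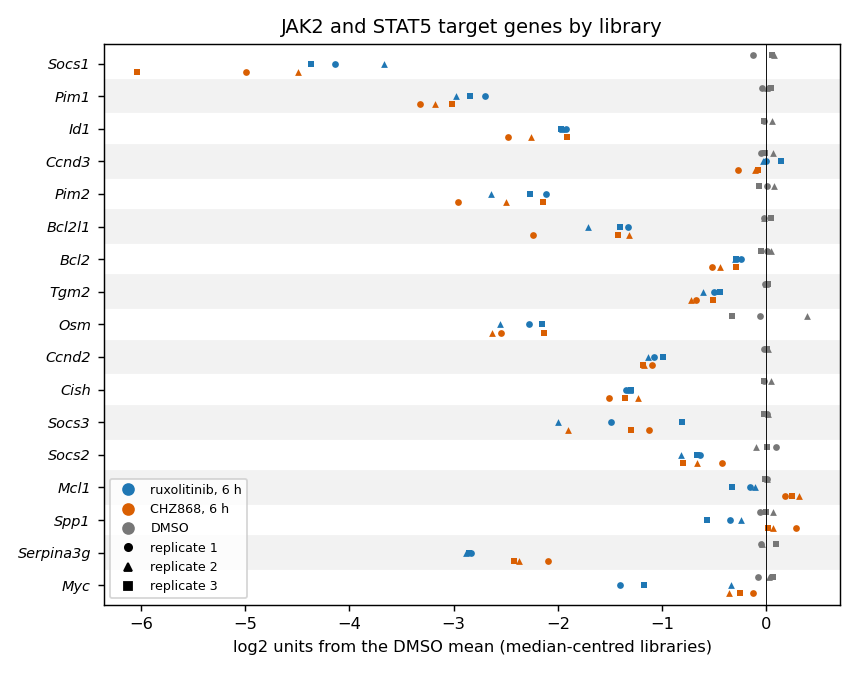
JAK2 and STAT5 target genes (17 rows) in each library, as log2 units from the mean of the 3 DMSO-treated libraries after median centring, with colour for the group and symbol for the replicate. The blue and orange points lie close together and left of the grey DMSO points for most genes, while Mcl1 has them on opposite sides of 0.

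The kinases and STAT factors themselves were mostly higher with ruxolitinib. Of the 10 listed, 7 were higher in all 3 ruxolitinib-treated libraries (18.6% of all genes were) and none was higher in all 3 CHZ868-treated libraries, with a median difference of 0.28, which ranged from 0.23 to 0.35 over the alternatives. None reached 1 log2 unit, and without ruxolitinib-treated replicate 2 the counts were 7 and 2 (28.7% of all genes each way). Tyk2, a JAK family kinase, differed most, at 0.90, 0.70 and 0.93 with ruxolitinib, 0.02, 0.47 and 0.33 with CHZ868 and 0.59, 0.49 and 0.54 in DMSO, a difference of 0.57 (SE 0.15). Jak1 had the lowest value, -0.18 (SE 0.08), with overlap. Jak2, which was chosen after its value was seen as the target of both drugs, differed by -0.16 (SE 0.09) with overlap. The introduced gene is human JAK2, and how many of its reads were counted for mouse Jak2 is not known here.

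Interferon-stimulated genes were well below DMSO with either drug. Between the drugs, the median of the interferon-inducible GTPases lay slightly on the side of CHZ868, with 17 of 25 differences negative. The wider list had no common direction. All 25 listed interferon-inducible GTPases, which act against intracellular pathogens, lay below DMSO in every library of both groups, as did 1667 of the 11624 shared genes. The medians of the 25 lay 3.15 log2 units below DMSO with ruxolitinib and 2.94 with CHZ868. Between the drugs their median was -0.27, from -0.29 to -0.17 over the alternatives. In 5 of the 25 every CHZ868-treated library was higher (16.7% of all genes) and in 1 every ruxolitinib-treated library was (18.6%). The first share, 20.0%, is near that of all genes, and without ruxolitinib-treated replicate 2 the counts were 9 and 3 (28.7% of all genes each way). Gbp2b, a guanylate-binding protein gene, stood at 2.11, 2.33 and 1.93 with ruxolitinib and at 2.89, 2.89 and 3.12 with CHZ868, against 4.54, 4.50 and 4.46 in DMSO, a difference of -0.84 (SE 0.14). Mx1, an antiviral GTPase, went the other way by 1.21 (SE 0.45), on 34, 36 and 28 reads with ruxolitinib and 6, 12 and 16 with CHZ868, and its difference was 0.78 without CHZ868-treated replicate 1.

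The wider list of 50 interferon-stimulated genes had a median difference of -0.05, whose sign changed over the alternatives (-0.13 to 0.02). In 12 the CHZ868-treated libraries were all higher (16.7% of all genes were) and in 5 the ruxolitinib-treated libraries were (18.6% of all genes were). Without ruxolitinib-treated replicate 2 the counts were 18 and 7 (28.7% of all genes each way). Isg20, an interferon-induced exonuclease, differed most. Its values were -2.03, -1.50 and -1.52 with ruxolitinib, -0.27, -0.55 and -0.05 with CHZ868 and 0.14, 0.07 and 0.10 in DMSO. The difference of -1.39 (SE 0.23) made it 2.63-fold higher with CHZ868, and it was counted under every alternative tried. Most of the distance from DMSO seen with ruxolitinib (-1.79) was not present with CHZ868 (-0.39).

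Genes of the ATF4 response formed the group with the clearest lean towards ruxolitinib. Of 36 genes listed, 29 were measured, and 26 of them had a positive difference. All 3 ruxolitinib-treated libraries were higher in 21 of the 29 (18.6% of all genes were), all 3 CHZ868-treated libraries were higher in 1, and 4 were counted with at least 1 log2 unit, where 0.757% of all genes were. Without ruxolitinib-treated replicate 2, 22 and 2 did not overlap (28.7% of all genes each way). Again 4 were counted, with Mthfd2 at 1.03 in place of Slc6a9 at 0.92. The list's median difference was 0.59, from 0.51 to 0.64 over the alternatives, beside 0.01 over all genes. Its median level was 1.47, 1.24 and 1.44 in the ruxolitinib-treated libraries, 0.60, 0.69 and 0.73 in the CHZ868-treated libraries and 1.95, 1.91 and 1.92 in DMSO. Both drugs thus lay below DMSO, CHZ868 further, and ruxolitinib-treated replicate 2 lay with its group.

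Trib3, a pseudokinase and ATF4 target, stood at 0.33, -0.27 and 0.31 with ruxolitinib and at -1.06, -1.14 and -1.07 with CHZ868, and DMSO held it at 1.47, 1.60 and 1.60. The difference of 1.21 (SE 0.20), or 2.31-fold, was counted under every alternative tried. Ddit3, the stress-induced factor CHOP, stood at -0.50, -0.66 and -0.75 with ruxolitinib and at -1.32, -1.94 and -1.75 with CHZ868, against -0.29, -0.11 and -0.01 in DMSO. It differed by 1.03 (SE 0.20). Pck2, the mitochondrial phosphoenolpyruvate carboxykinase, stood at 2.21, 1.68 and 2.11 against 0.80, 1.04 and 1.06, a difference of 1.03 (SE 0.18). Slc6a9, a glycine transporter, stood at 0.55, 0.81 and 0.53 against -0.72, -0.14 and -0.29, a difference of 1.01 (SE 0.20). No library of one drug overlapped with the other for any of these genes. The differences of Ddit3, Pck2 and Slc6a9 lie at the threshold, and with a library left out they ranged from 0.90 to 1.21, from 0.92 to 1.19 and from 0.84 to 1.14. Slc6a9 shares 1429 exonic bases with Ccdc24 on the opposite strand, and no source used here says whether reads were assigned by strand.

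Further members, chosen after their values were seen, fill in the roles of the list. Atf4 itself stood at 2.20, 2.01 and 2.37 with ruxolitinib and at 1.58, 1.69 and 1.50 with CHZ868, a difference of 0.60 (SE 0.12), with DMSO at 2.90, 2.96 and 2.95. The amino acid transporter genes Slc7a5 (0.66, SE 0.13), Slc3a2 (0.64, SE 0.05) and Slc7a11 (0.65, SE 0.13) and the one-carbon enzyme gene Mthfd2 (0.98, SE 0.10) were higher in all 3 ruxolitinib-treated libraries. In the serine pathway the members split. Psat1, its transaminase, was higher with ruxolitinib by 0.35 (SE 0.11), Phgdh, the first enzyme, differed by 0.23 (SE 0.24) with overlap, and Psph, the last enzyme, was higher with CHZ868 by 0.78. Its value of -0.78 (SE 0.15) rests on -0.37, -0.62 and -0.21 with ruxolitinib against 0.24, 0.56 and 0.32 with CHZ868, and it was the single member higher in all 3 CHZ868-treated libraries. Asns, asparagine synthetase, differed by 0.16 (SE 0.09) with overlap.

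The core of the ATF4 element shown in capitals above was present in 7 of the 26 list members with a promoter window, or 26.9%, beside 2.73% of all shared genes with one. They were Trib3, Pck2, Asns, Pycr1, Slc7a11, Slc1a4 and Nupr1. Their differences ran from 1.21 for Trib3 to -0.43 for Pycr1, so members with the element stood near both ends of the list. Ddit3 had no match in its window. Among aminoacyl-tRNA synthetases, 5 of 13 windows held the element.

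Aminoacyl-tRNA synthetases, which load amino acids onto tRNAs and include ATF4 targets, stood on both sides. Of the 20 measured, 9 were higher in all 3 ruxolitinib-treated libraries (45.0%, against 18.6% of all genes) and 3 in all 3 CHZ868-treated libraries (16.7% of all genes were), with a median of 0.20 (0.15 to 0.28 over the alternatives). Without ruxolitinib-treated replicate 2 the counts were 10 and 4 (28.7% of all genes each way). Cars, the cysteinyl enzyme, stood at 1.53, 1.30 and 1.32 with ruxolitinib, at 0.41, 0.38 and 0.28 with CHZ868 and at 1.67, 1.72 and 1.73 in DMSO. Its difference of 1.03 (SE 0.08), or 2.04-fold, was the only one counted. Farsb, a subunit of the phenylalanyl enzyme, was at the other end with -0.52 (SE 0.11), at 1.05, 1.22 and 0.97 against 1.75, 1.60 and 1.46.

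**Figure D3:**
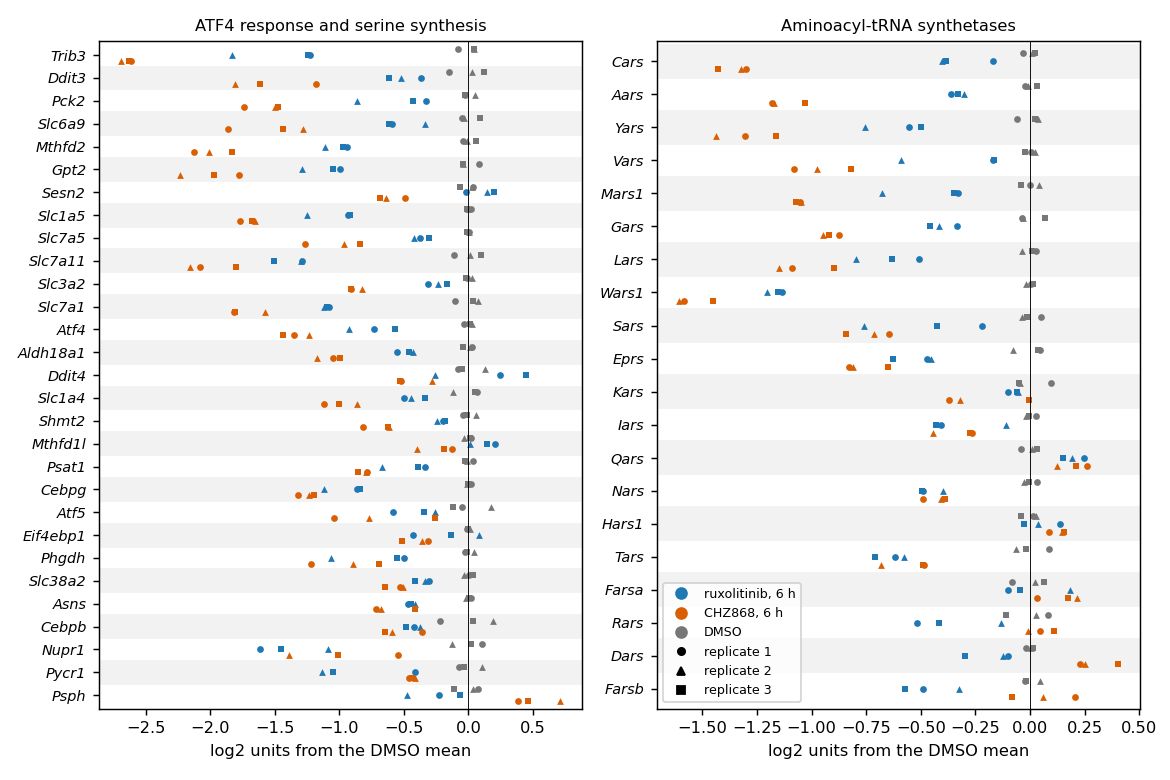
Members of the ATF4 list (left, 29 genes) and of the aminoacyl-tRNA synthetases (right, 20 genes) in each library, as log2 units from the mean of the 3 DMSO-treated libraries after median centring, ordered by the difference between the drugs. In the upper rows the ruxolitinib points lie between the CHZ868 points and DMSO, as for Trib3 and Cars, and in the bottom rows, as for Psph and Farsb, the order of the drugs is turned.

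Transcripts of the mitochondrial genome were among the largest differences in the direction of CHZ868. The 14 mitochondrial genes in both tables took 1.70%, 3.54% and 1.73% of the reads on shared genes in the ruxolitinib-treated libraries, 4.97%, 4.93% and 6.38% in the CHZ868-treated libraries and 1.43%, 1.43% and 1.37% in DMSO. Of the 10 mitochondrial mRNAs measured, 9 were counted as higher with CHZ868 (0.731% of all genes were) and the median difference was -1.87, from -2.26 to -1.42 over the alternatives. Ruxolitinib-treated replicate 2 stood between the groups. The list's median level was 4.28, 5.65 and 4.23 with ruxolitinib, 6.43, 6.42 and 6.90 with CHZ868 and 4.20, 4.09 and 3.97 in DMSO. Without replicate 2 the median difference was -2.26, and all 10 were counted.

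Among complex I subunits, mt-Nd6 differed most. It is encoded at 13552 to 14070 on the minus strand of the mitochondrial genome and stood at 3.10, 4.57 and 2.90 with ruxolitinib, at 5.36, 5.74 and 6.27 with CHZ868 and at 3.27, 3.13 and 2.92 in DMSO. The difference of -2.27 (SE 0.59) made it 4.82-fold higher with CHZ868. Differences were -2.11 for mt-Nd2, -1.93 for mt-Nd5 and -1.82 for mt-Nd1. In complex IV, mt-Co1 had the smallest difference of the 10, -1.08 (SE 0.35), at 8.10, 9.15 and 8.16 against 9.51, 9.47 and 9.67, and mt-Co2 differed by -1.94. Reads on the ribosomal RNA genes mt-Rnr2 (-2.05) and mt-Rnr1 (-1.76) and on the 67-base tRNA gene mt-Tp (-2.05) went the same way. The libraries were made for mRNA, so whether these reads reflect mature rRNA and tRNA is not known here.

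The CHZ868-treated libraries were not in one order for these transcripts. Replicate 3 was highest for mt-Nd6, at 6.27, and for mt-Rnr2, at 4.16, whereas replicate 1 was highest and replicate 3 lowest for mt-Co2 (2.20, 1.46 and 1.25), for mt-Atp6 (2.82, 1.82 and 0.37) and for Gm13340 (3.03, 2.67 and 0.24). mt-Atp6, a subunit of ATP synthase, differed by -2.03 (SE 0.83), and ruxolitinib-treated replicate 2, at 0.50, overlapped with the lowest of them. Gm13340, on nuclear chromosome 2 at 22588103 to 22589647, is an unprocessed pseudogene that shares 50.4% of its 31-base words with other genes and most with mt-Co1. All words of mt-Co2 occur in another gene, most of them in Gm28661. Reads of these genes and of their nuclear copies may thus have been split between them.

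**Figure D4:**
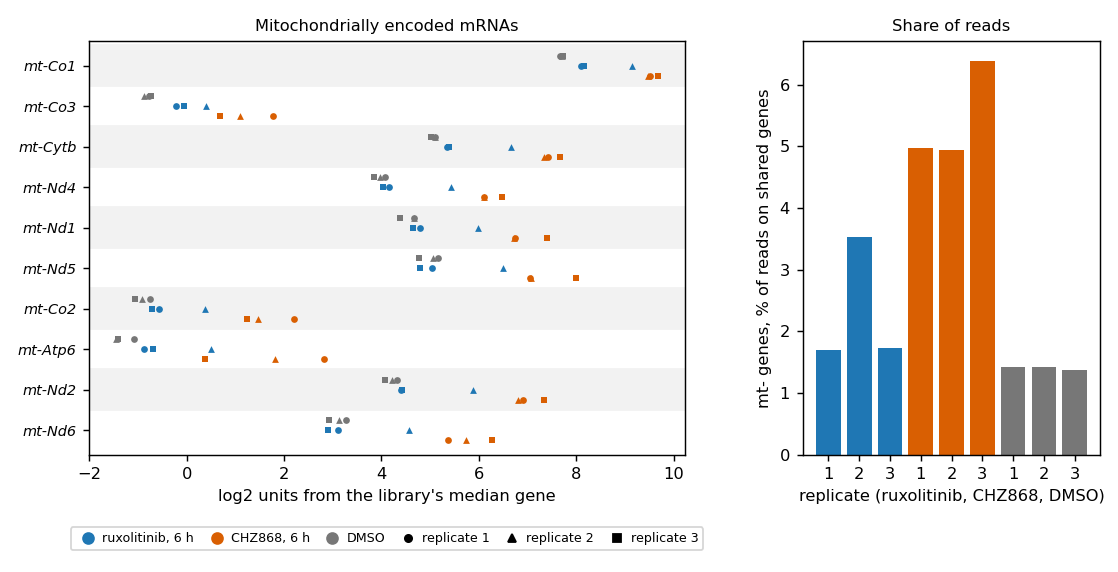
Levels of the 10 mitochondrial mRNAs in each library (left, log2 units from the library's median gene) and the share of reads on shared genes that the 14 mitochondrial genes took (right, %, 1 bar per library). Ruxolitinib-treated replicates 1 and 3 lie near DMSO, replicate 2 at 3.54% lies between, and the CHZ868-treated libraries are highest.

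Nuclear genes of the respiratory chain leaned the same way by less. Of 78 nuclear subunits of oxidative phosphorylation, 28 were higher in all 3 CHZ868-treated libraries (16.7% of all genes were) and 1 in all 3 ruxolitinib-treated libraries, and the median was -0.28 (-0.42 to -0.16 over the alternatives). Without ruxolitinib-treated replicate 2 the counts were 29 and 9 (28.7% of all genes each way) and the median was -0.16. The subunits found in the annotation had a median longest transcript of 1005 bases. Among nuclear protein-coding genes with a longest transcript of 252 to 2047 bases, 25.5% were higher in all CHZ868-treated libraries. The share higher in all ruxolitinib-treated libraries was 7.94%. Uqcrb, a subunit of complex III, stood at 0.09, 0.52 and 0.10 with ruxolitinib, at 1.77, 1.62 and 1.30 with CHZ868 and at -0.20, 0.11 and -0.11 in DMSO, a difference of -1.33 (SE 0.20). Atp5mk, a small subunit of ATP synthase, differed by -1.18 (SE 0.24), and both were counted. Cytosolic ribosomal protein genes had a median of -0.25 over 82 members, with 20 higher in all CHZ868-treated libraries (24.4%, against 16.7% of all genes) and 2 in all ruxolitinib-treated libraries (18.6% of all genes). This imbalance rested on ruxolitinib-treated replicate 2, since without it the counts were 20 and 17 (28.7% of all genes each way), with a median of -0.16. Of the 82 members, 66 were in the range of 252 to 2047 bases given above, and the part of length was not tested. Rps26, on chromosome 10 at 128624534 to 128626747, differed most. Its values were 3.11, 4.31 and 3.50 with ruxolitinib, 5.98, 5.47 and 4.71 with CHZ868 and 3.03, 3.14 and 3.00 in DMSO, a difference of -1.75 (SE 0.51). It shares 16.6% of its 31-base words with other genes, most with Rps26-ps1. Rps10, on 58, 39 and 29 reads against 6, 11 and 16, was higher with ruxolitinib by 1.55 (SE 0.51), and 62.2% of its words occur in other genes.

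Chaperones and genes of the unfolded protein response were mostly on the side of CHZ868 where the groups did not overlap. In 12 of 27 all CHZ868-treated libraries were higher (44.4%, against 16.7% of all genes) and in 1 all ruxolitinib-treated libraries were (18.6% of all genes), with a median of -0.17 (-0.22 to -0.09). Without ruxolitinib-treated replicate 2 the counts were 13 and 3 (28.7% of all genes each way). Dnajb9, a co-chaperone of the endoplasmic reticulum, stood at -0.73, -0.09 and -0.66 with ruxolitinib and at 0.90, 0.88 and 0.86 with CHZ868. DMSO held it at -0.60, -0.62 and -0.47, level with ruxolitinib-treated replicates 1 and 3. The difference of -1.38 (SE 0.20), or 2.59-fold higher with CHZ868, was counted under every alternative tried. Ddit3, which the unfolded protein response can also induce, went the opposite way, as given above. Creld2 had the highest value of the list, 0.31 (SE 0.15), with overlap.

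Single genes of cytokine signalling and of the ERK pathway stood out beside their lists. Il2rg, the common chain of several interleukin receptors, stood at -2.13, -1.31 and -1.55 with ruxolitinib, at -0.37, -0.35 and -0.85 with CHZ868 and at -2.38, -1.51 and -2.11 in DMSO, a difference of -1.14 (SE 0.29). It shares 728 exonic bases with Gm20489 on the same strand, and 42.7% of its 31-base words occur in other genes. The other 17 receptor chains listed were not counted, although 1 was counted as higher with ruxolitinib once replicate 2 was left out, and the list's median was 0.27. Among feedback genes of the ERK pathway, Phlda1 differed by -1.30 (SE 0.50) without overlap, on 30, 84 and 52 reads against 116, 142 and 78. Of its 31-base words, 34.9% occur in other genes, most in Gm28592. Egr3, an immediate early factor, rested on 10, 14 and 4 reads with ruxolitinib and on 3, 0 and 1 with CHZ868, so its difference is given as reads only. The 19 genes of that list had a median of 0.05, whose sign changed over the alternatives. B2m, the light chain of MHC class I, was at 5.21, 5.79 and 5.37 against 6.54, 6.42 and 6.25, a difference of -0.95 (SE 0.19) that became -1.11, and was counted, without ruxolitinib-treated replicate 2, while Tap2, a peptide transporter of the same pathway, was higher with ruxolitinib by 0.61 (SE 0.15).

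Among counted genes with a level of at least 3 log2 CPM in the higher group, the 12 with the largest difference towards ruxolitinib were Gm44878 (1.49), Gm26850 (1.45), Gm27038 (1.37), Gm33699 (1.31), Miga2 (1.30), Tspoap1 (1.30), Gm12744 (1.28), Mib2 (1.27), Gm14453 (1.27), 6330562C20Rik (1.26), Gm20529 (1.25) and Ccdc157 (1.24). Mib2, an E3 ubiquitin ligase, was the highest in level and stood at 0.00, -0.35 and 0.09 with ruxolitinib, at -1.62, -1.52 and -0.95 with CHZ868 and at 0.58, 0.38 and 0.44 in DMSO. Only 4 of the 12 are protein-coding in the annotation (Miga2, Tspoap1, Mib2 and Ccdc157). Except for Miga2, Tspoap1 and Mib2, each of them shares exonic bases with a gene on the opposite strand, and where strand was not used the reads in those shared bases cannot be told from those of that partner. The shared bases run from 50 in Ccdc157 to 1136 in Gm26850. The 12 with the largest difference towards CHZ868, again among counted genes, were Gm13340 (-2.66), 8 mitochondrial genes, the tubulin pseudogene Gm3226 (-1.79), Gm44710 (-1.79), which is antisense to Zfp36, and Rps26.

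Transcript length, shares of reads and levels of other cell markers differed between the libraries as well. Among nuclear protein-coding genes, the bin of shortest transcripts (252 to 2047 bases, 1 of 5 bins of near equal size) had 7.94% of genes higher in all ruxolitinib-treated libraries and 25.5% higher in all CHZ868-treated libraries. In the bin of longest transcripts (5258 to 27908 bases) these were 27.1% and 9.61%. The median difference went from -0.11 in the shortest to 0.07 in the longest bin, and from -0.06 to 0.02 without ruxolitinib-treated replicate 2. Genes counted higher with CHZ868 had a median longest transcript of 1374 bases, those counted higher with ruxolitinib 2221 and all shared genes 3157. ATF4 list members were found in every bin, with a median difference of 0.29 in the shortest (9 genes) and 0.63 in the longest (3 genes). Summed markers of megakaryocytes (2 of 6 in both tables) reached 448 to 665 CPM with ruxolitinib, 357 to 388 with CHZ868 and 693 to 717 in DMSO. Those of mast cells and basophils (2 of 10, Fcer1g and Gata2) reached 837 to 932, 711 to 769 and 695 to 734. Most of this sum was Gata2, at a mean of 9.77, 9.46 and 9.44 log2 CPM, which is also listed as a hematopoietic lineage factor. The sum thus says little about mast cells or basophils as such. Summed markers of erythroid cells (3 of 7) reached 537 to 854, 496 to 531 and 388 to 419. For T cells (2 of 8) and macrophages (2 of 8) they were at most 36.4 and 19.3 CPM in any group. The part of length or of these cell markers in the differences was not tested.

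**Figure D5:**
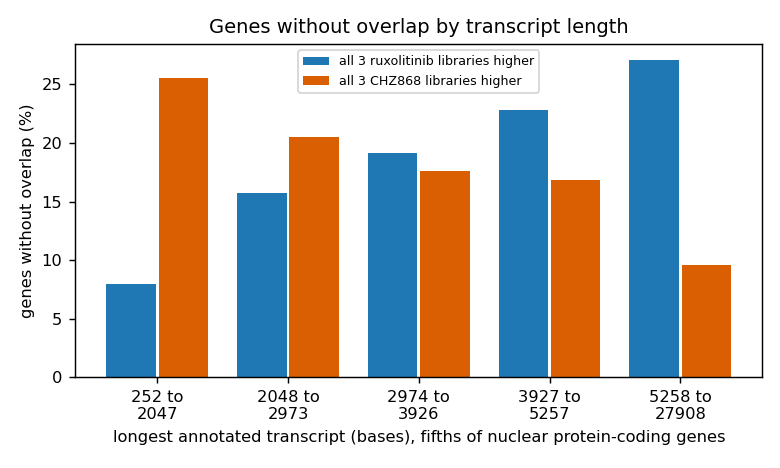
Share of nuclear protein-coding genes (%) for which all 3 libraries of one drug lay above all 3 of the other, in 5 bins of the longest annotated transcript (bases). The share higher with ruxolitinib goes from 7.94% to 27.1% with length, and the share higher with CHZ868 from 25.5% to 9.61%.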

How the data were processed

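Cells were exposed to 1 μM inhibitor or DMSO for 6 h, RNA was isolated with Trizol, and mRNA libraries were made with a kit whose labels name both mRNA and strand-specific mRNA libraries. The authors' methods name kallisto with GRCm38 transcripts, whereas the submitters' processing notes name STAR (2.7.3a), GRCm39 and edgeR (4.0.16), and which of them made the files was not resolved here. The authors removed weakly expressed genes, applied TMM scaling and deposited log2 CPM values with a constant added. The constant was taken as 0.2135 CPM (ruxolitinib) and 0.2218 CPM (CHZ868 and DMSO), which made 100% of the low values of every library whole reads within 0.1 and gave the depth. In the CHZ868 table each gene had at least 7 reads in every DMSO-treated library, so genes that appear only with an inhibitor are not listed. The DMSO libraries are those of the CHZ868 table and stand beside both drugs.

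Groups were taken from the titles. Differences, counts and medians were computed in Python 3.11.15 with pandas 2.3.3 and numpy 2.4.6. The counting rule and the recovery of reads were also run on simulated counts. There, the planted differences were larger than the threshold and lay only in well-covered genes, and list medians were not part of that run. Named genes were the 12 with the largest counted difference in each direction at a level of at least 3 log2 CPM, all JAK2 and STAT5 targets, the extreme and counted members of each list (up to 6), and the 5 highest genes that 1 table holds alone. The members, the rule and the 36 gene lists were chosen with earlier results of these data known, and the washout tables were not used here. Alternatives were other centrings and normalizations, constants of 1 and 5 CPM, minimum levels, another threshold and each library left out. Positions, types and lengths are from GENCODE vM21 (GRCm38), in which 95.7% of the shared symbols were found. Near copies were counted as shared 31-base words of the longest transcript.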

Additional observations from a re-analysis of the deposited data

Results flagged for a closer look

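For some genes the drugs stood on opposite sides of DMSO, with every library of one drug above and every library of the other below all DMSO-treated libraries, and this difference was not tested. It held for 126 genes with ruxolitinib above and CHZ868 below, and for 92 the other way, of 11624. Among the counted and named genes, those with ruxolitinib above were Gm14453 (difference between the drugs 1.27), Fer1l5 (1.23), Gm29237 (1.18), Gm16982 (1.17), Dpm1 (1.10), Gm12333 (1.09), Gm48249 (1.02) and Tyk2 (0.57). Those with CHZ868 above were Gm13625 (-1.17), Pinx1 (-1.08), Cycs (-1.05), Ube2v2 (-1.04), Zfp931 (-1.04), Chac2 (-1.02) and Mcl1 (-0.44). Cycs, which encodes cytochrome c, stood at -0.08, 0.20 and 0.15 with ruxolitinib, at 1.26, 1.06 and 1.10 with CHZ868 and at 0.78, 0.92 and 0.92 in DMSO.

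The CHZ868 table holds 46 genes that the ruxolitinib table does not. The 5 with the highest mean in the CHZ868-treated libraries were above DMSO in every CHZ868-treated library. Choosing them by that mean favours this direction, so it is no independent result. On the deposited log2 CPM scale, the differences from DMSO were 4.95 for Gm13341, 4.77 for mt-Atp8, 2.69 for Gm14719, 2.57 for Ybx1-ps2 and 2.18 for mt-Ty. The reads of mt-Atp8, a subunit of ATP synthase, were 1023, 366 and 91 with CHZ868 and 10, 13 and 11 in DMSO. No value with ruxolitinib can be set beside them.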

How the results depend on the processing

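The counts moved by over 1.5 times under several alternatives. Genes differing by at least 1 log2 unit without overlap numbered 173, and 111 with log2(CPM + 1), 38 with log2(CPM + 5), 87 at a mean of at least 3 log2 CPM and 1122 with a threshold of 0.58. Those higher with ruxolitinib numbered 88, and 44 with quantile normalization, 45 with log2(CPM + 1), 2 with log2(CPM + 5), 17 at a mean of at least 3 log2 CPM and 597 with the lower threshold. Those higher with CHZ868 numbered 85, and 36 with log2(CPM + 5) and 525 with the lower threshold. Leaving out each library in turn gave 145 to 403 genes, 85 to 204 with ruxolitinib and 60 to 199 with CHZ868, the highest without ruxolitinib-treated replicate 2. The medians of the ATF4 list, the mitochondrial mRNAs and the JAK2 and STAT5 targets kept their sign under every alternative. No named gene that was counted changed sign, and 72 of their values over the alternatives fell short of the count. No paired analysis was possible because the comparison comes from no test, and the labels do not say that equal replicate numbers share a culture. Genes with few reads limit the side of ruxolitinib most, since 56 of its 88 genes lay below 3 log2 CPM.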

Other observations

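All ruxolitinib-treated libraries were higher in 18.6% of all genes and all CHZ868-treated libraries in 16.7%, and the counts over lists that follow stand beside these shares. Counts without ruxolitinib-treated replicate 2 stand beside 28.7% of all genes each way. In 8 of 14 genes of fatty acid synthesis all ruxolitinib-treated libraries were higher and in 1 all CHZ868-treated libraries were, with a median difference of 0.22 (9 and 3 without ruxolitinib-treated replicate 2), and Fasn, fatty acid synthase, differed by 0.39 (SE 0.08). In 8 of 28 genes of glycolysis and the hypoxia response all ruxolitinib-treated libraries were higher and in none the reverse, but the counts were 16 and 2 without that replicate, and Slc2a3, a glucose transporter, stood at 2.89, 2.24 and 2.81 against 1.78, 1.98 and 2.02 (difference 0.72, SE 0.22). Nucleotide synthesis had 10 of 26 genes higher in all CHZ868-treated libraries and 4 in all ruxolitinib-treated libraries (10 and 6 without it), with Pfas at 0.80 (SE 0.20) and Nme1 at -1.03 (SE 0.24).

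Genes of ribosome biogenesis were higher in all CHZ868-treated libraries in 19 of 52 and in all ruxolitinib-treated libraries in 7, against 22 and 11 without ruxolitinib-treated replicate 2, with Lyar at -1.01 (SE 0.37). In 8 of 25 genes of the actin cytoskeleton all CHZ868-treated libraries were higher and in 4 all ruxolitinib-treated libraries were, against 13 and 5 without that replicate, with a median of -0.26. Mitosis genes had a median of -0.11 over 49 and DNA replication genes -0.10 over 50. The cell death regulator Bak1 stood at 0.59, 1.65 and 0.96 with ruxolitinib and at 1.96, 1.84 and 2.09 with CHZ868, a difference of -0.90 (SE 0.32), and of -1.19 without ruxolitinib-treated replicate 2.

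The ruxolitinib table holds 244 genes of its own. The 5 highest were Snx29, 2010110K18Rik, Hdc, Sbk2 and Mterf1b, at 2.68, 2.55, 2.51, 2.45 and 2.44 log2 CPM.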
